A study of Mus musculus with 28 samples.

Results

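The genes described here are Spp1, Igf1 and Gpnmb, taken by symbol from a table of 48587 genes, and all 3 were found and passed the low-count filter among 15298 genes tested. They were measured in FACS-sorted CD11b+CD45low microglia from the hippocampus of 28 male mice, 16 weeks old according to the labels, with 1 RNA-seq library per mouse. The sort also excluded cells that fell in a dump gate, for which the study's methods list antibodies against Ly6C and Ly6G among others. The mice were 5xFAD animals, whose transgenes include human APP with the Swedish, Florida and London mutations under the neuronal Thy1 promoter, heterozygous on C57BL/6J, or their non-transgenic wild-type (WT) littermates. Each genotype was kept specific pathogen free (SPF, 5 WT and 3 5xFAD), germ-free (GF, 4 WT and 5 5xFAD) or SPF with antibiotics in the drinking water over 8 weeks (ABX, 5 WT and 6 5xFAD), the cocktail being vancomycin, cefoxitin, gentamicin and metronidazole. GF mice came from another animal facility than the SPF and ABX mice, so that housing and facility cannot be told apart. Mouse FAD_GF_201 is 5xFAD by its title and genotype label and WT by its description, and is used here as a GF 5xFAD mouse.

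Each member is a protein that macrophage-lineage cells make in tissue under stress. Spp1 encodes osteopontin, a secreted phosphoprotein that binds integrins and CD44 and can be cut by thrombin and matrix metalloproteinases. Igf1 encodes insulin-like growth factor 1, a secreted growth factor that signals through the receptor tyrosine kinase Igf1r and then through phosphatidylinositol 3-kinase and Akt. Gpnmb encodes a type I transmembrane glycoprotein of endosomes, lysosomes and the cell surface, which is shed by Adam10 and is a target of the MiT/TFE family of lysosomal transcription factors. In amyloid models these genes are known from microglia around plaques, and Spp1 and Gpnmb are also known from other tissue macrophages and from border-associated macrophages.

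In GRCm38 with GENCODE M21 gene models, Spp1 (ENSMUSG00000029304.14) lies on the plus strand at chr5:104435118-104441050 with 1648 exonic bases. Igf1 (ENSMUSG00000020053.18) lies on the plus strand at chr10:87858265-87937042 with 9904 exonic bases, and Gpnmb (ENSMUSG00000029816.10) on the plus strand at chr6:49036546-49070929 with 6514. Spp1 shares 309 exonic bases, 18.8 percent of its own, with the gene model Gm42793 on the same strand, which held at most 3 reads in a library. Igf1 overlaps the antisense gene Igf1os without sharing exonic bases, and Igf1os held at most 14 reads. The kit does not mark strand and the counting setting is not given in the sources used here, so reads of Igf1 and Igf1os cannot be told apart by strand.

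Because the members rose together in 5xFAD mice, the sequences just upstream of Spp1 and Gpnmb are shown, from RefSeq (GRCm38.p6), 5′ to 3′ on the plus strand up to the base before the M21 gene start. The Spp1 stretch is chr5:104434861-104435117 and the Gpnmb stretch chr6:49036268-49036545. Capitals mark matches to the 5 motifs searched.
Spp1: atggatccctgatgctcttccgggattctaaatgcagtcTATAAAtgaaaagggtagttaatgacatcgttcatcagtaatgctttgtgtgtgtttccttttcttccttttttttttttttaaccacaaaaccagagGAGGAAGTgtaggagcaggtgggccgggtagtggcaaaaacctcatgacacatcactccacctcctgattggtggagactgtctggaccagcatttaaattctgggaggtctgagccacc
Gpnmb: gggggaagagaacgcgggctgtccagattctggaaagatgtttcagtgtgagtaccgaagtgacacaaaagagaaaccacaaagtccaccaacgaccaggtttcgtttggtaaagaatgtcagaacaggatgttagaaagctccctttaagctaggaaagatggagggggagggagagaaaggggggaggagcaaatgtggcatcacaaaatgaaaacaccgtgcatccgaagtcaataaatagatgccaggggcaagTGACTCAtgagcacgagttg
The search covered both strands of RefSeq windows of 300 bases. The motifs were CACGTG, an E-box form that MiT/TFE factors bind, a second such form, CATGTG, the AP-1 motif TGACTCA, the PU.1 motif GAGGAAGT, named for the factor that defines the myeloid lineage, and the TATA box motif, TATAAA. Spp1 held GAGGAAGT starting 120 bases before the M21 start, a motif present in 3.20 percent of 32851 windows, and TATAAA starting 218 bases before it, present in 13.6 percent. Gpnmb held TGACTCA starting 20 bases before the start, present in 5.20 percent of windows. Neither E-box form was in these windows, against 7.15 percent of all windows for CACGTG and 14.2 percent for CATGTG. These are matches of letters and not measured binding sites. The RefSeq window of Igf1 lies past the M21 gene start, within annotated exonic sequence, and is not shown.

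Library totals ranged from 14441610 to 29977395 reads, and levels are CPM, read counts divided by the library size after scaling by the trimmed mean of M values (TMM). The sum of 7 microglial markers, among them P2ry12, Tmem119 and Csf1r, was 40210 to 46608 CPM of the library total in WT and 29074 to 37817 in 5xFAD mice, which fits the labelled cell type. The 3 SPF 5xFAD mice and FAD_ABX_1151, whose descriptions share a numbering style found in no other mouse, held 61.1 to 263 CPM of 7 neutrophil markers, and the other 24 mice at most 0.774. In the descriptions, all SPF and ABX WT mice share another style, and all GF mice share a style with the other ABX 5xFAD mice. So the SPF and ABX genotype comparisons, GF against SPF in either genotype and ABX against GF in WT mice cannot be told apart from this numbering, and in ABX against SPF 5xFAD mice FAD_ABX_1151 is the 1 ABX mouse that shares the SPF style. The GF genotype comparison and ABX against SPF in WT mice each lie within 1 style. T cell markers summed to at most 0.220 CPM and erythrocyte markers to at most 0.635. Astrocyte markers summed to 155 to 327 CPM, with Slc1a3 the highest of them. Oligodendrocyte markers summed to 153 to 221 CPM, with Cnp the highest, and B cell markers to 22.6 to 52.9 CPM, with Cd79b the highest. Whether these reads came from microglia or from other cells was not tested.

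All 3 members were low or near absent in WT microglia and high in 5xFAD microglia under each housing condition. Against the highest WT mouse, 14 of 14 5xFAD mice were above it for Spp1, 14 of 14 for Igf1 and 13 of 14 for Gpnmb, the exception being FAD_ABX_1482. In bulk RNA, fewer cells that express a gene and less RNA per cell cannot be told apart. The 5xFAD mouse with the conflicting description, FAD_GF_201, lay in the 5xFAD range for each member. Among GF 5xFAD mice it was the lowest for each, at 28.9 CPM of Spp1, 45.9 of Igf1 and 1.45 of Gpnmb. Its microglial markers summed to 36597 CPM, against 29074 to 30286 CPM in the other GF 5xFAD mice.

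Spp1, the osteopontin gene, was detected in every library. In SPF WT mice it was at 0.767, 1.16, 1.31, 1.51 and 3.18 CPM, and in SPF 5xFAD mice at 26.0, 29.5 and 39.2 CPM. In GF WT mice it was at 1.07, 3.97, 4.76 and 5.74 CPM, and in GF 5xFAD mice at 28.9, 37.9, 43.9, 44.3 and 62.4 CPM. In ABX WT mice it was at 0.572, 0.725, 0.760, 1.72 and 4.69 CPM, and in 6 ABX 5xFAD mice it ran from 20.5 over a median of 38.3 to 58.9 CPM. The genotypes did not overlap under any housing condition, and the lowest 5xFAD value was the one of FAD_ABX_1151. Mean levels were 1.59 ± 0.933 (SD, n = 5) in SPF WT, 3.89 ± 2.01 (SD, n = 4) in GF WT and 1.69 ± 1.74 (SD, n = 5) in ABX WT mice. They were 31.6 ± 6.83 (SD, n = 3) in SPF, 43.5 ± 12.3 (SD, n = 5) in GF and 38.2 ± 15.3 CPM (SD, n = 6) in the ABX 5xFAD group.

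In the quasi-likelihood test of edgeR, with p-values adjusted over all genes by Benjamini-Hochberg, Spp1 rose 20.3-fold in SPF 5xFAD mice (log2 fold change 4.35, SE 0.495, adjusted p = 3.11e-07). It rose 11.3-fold in GF mice (log2 fold change 3.50, SE 0.483, adjusted p = 4.34e-06) and 23.3-fold in ABX mice (4.54, SE 0.471, adjusted p = 3.22e-08). As background, 3.73 percent of all tested genes were called higher in 5xFAD than in WT under SPF, 9.43 percent under GF and 9.45 percent under ABX, and all 3 members were among them in each condition. Genes called lower made up 0.837 percent under SPF, 6.2 percent under GF and 4.98 percent under ABX. The smaller fold in GF mice stood beside the higher GF WT level, and the difference of the Spp1 effect between GF and SPF mice was -0.85 (log2, 95% interval -2.20 to 0.50, edgeR adjusted p = 0.767). Between ABX and GF it was 1.05 (95% interval -0.22 to 2.31, adjusted p = 0.423) and between ABX and SPF 0.20 (95% interval -1.16 to 1.56, adjusted p = 0.990). A difference of the Spp1 effect between housing conditions was therefore not detected. Without WT_ABX_911, the ABX WT mouse at 4.69 CPM, the ABX change of Spp1 was 5.39, and its effect differed by 1.90 between ABX and GF (adjusted p = 0.108) and by 1.03 between ABX and SPF. With FAD_GF_201 counted as WT, the effect differed by 2.14 between ABX and GF (adjusted p = 0.161) and by -1.94 between GF and SPF (adjusted p = 0.513).

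Igf1, the growth factor gene, was also clearly separated by genotype, with larger fold changes than those of Spp1 under each housing condition. In SPF WT mice it was at 0.0935, 0.345, 0.558, 0.603 and 0.897 CPM, and in SPF 5xFAD mice at 49.2, 53.4 and 74.9 CPM. In GF WT mice it was at 0.322, 1.72, 2.06 and 2.11 CPM, and in GF 5xFAD mice at 45.9, 90.0, 121, 122 and 125 CPM. In ABX WT mice 2 libraries held no Igf1 read and the others stood at 0.757, 0.801 and 1.31 CPM, and in ABX 5xFAD mice it ran from 40.6 over a median of 51.8 to 61.3 CPM. Of the GF 5xFAD mice, 4 were above every SPF and ABX 5xFAD mouse, and the one at 45.9 CPM was FAD_GF_201. Mean levels in WT mice were 0.499 ± 0.300 (SD, n = 5) in SPF, 1.55 ± 0.838 (SD, n = 4) in GF and 0.573 ± 0.566 CPM (SD, n = 5) under ABX. In 5xFAD mice they were 59.2 ± 13.8 (SD, n = 3) in SPF, 101 ± 33.9 (SD, n = 5) in GF and 51.7 ± 8.13 CPM (SD, n = 6) in ABX.

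Igf1 rose 116-fold in SPF 5xFAD against SPF WT mice (log2 fold change 6.86, SE 0.476, edgeR adjusted p = 1.53e-11). The rise was 63.5-fold in GF mice (5.99, SE 0.463, adjusted p = 7.57e-11) and 86.4-fold in ABX mice (6.43, SE 0.452, adjusted p = 1.43e-11). The effect differed by -0.87 between GF and SPF mice (log2, 95% interval -2.21 to 0.47, edgeR adjusted p = 0.759), by -0.43 between ABX and SPF (95% interval -1.86 to 1.00, adjusted p = 0.958) and by 0.44 between ABX and GF (95% interval -0.83 to 1.71, adjusted p = 0.799). None of these passed the threshold of 0.05. With FAD_GF_201 counted as WT, the GF changes were 3.45 for Igf1 and 2.40 for Spp1, and the Igf1 effect differed by -3.41 between GF and SPF (adjusted p = 0.391) and by 2.99 between ABX and GF (adjusted p = 0.149). With limma voom and quality weights there was an ABX change of 7.81 for Igf1. The edgeR test called 0 percent of all genes for the GF against SPF and ABX against SPF differences of effect, where 1304 and 1032 genes had an unadjusted p under 0.05, DESeq2 called 25 and 1 and limma voom with quality weights 116 and 14. For ABX against GF the background was 1.76 percent.

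Gpnmb, the lysosomal glycoprotein gene, was close to silent in WT microglia. The 14 WT libraries together held 5 Gpnmb reads, of which SPF mice had 3, GF mice 2 and ABX mice 0, and 10 libraries held none. In SPF 5xFAD mice it was at 3.64, 4.62 and 12.8 CPM, in GF 5xFAD mice at 1.45, 2.33, 4.58, 5.11 and 32.3 CPM, and in ABX 5xFAD mice from 0 over a median of 2.20 to 13.7 CPM. A single mouse stood well above the rest of its group in each housing condition. FAD_GF_181, with 604 reads, held 66.7 percent of all Gpnmb reads of the GF 5xFAD mice and was 6.31 times the next mouse. FAD_ABX_1452 held 62.0 percent in the ABX and FAD_SPF_1144 59.5 percent in the SPF 5xFAD mice. Mean levels were 7.01 ± 5.01 (SD, n = 3) in SPF, 9.14 ± 13.0 (SD, n = 5) in GF and 3.96 ± 5.02 CPM (SD, n = 6) in the ABX 5xFAD group. Without the highest mouse of each, SPF 5xFAD mice averaged 4.13 ± 0.695 (SD, n = 2), GF 5xFAD mice 3.37 ± 1.76 (SD, n = 4) and ABX 5xFAD mice 2.02 ± 1.81 CPM (SD, n = 5).

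With reads pooled over each group, Gpnmb was 259.7-fold higher in SPF 5xFAD than in SPF WT mice, with an exact 95% counting interval from 88.2 to 1265. In GF mice the pooled ratio was 307, with an interval from 84.7 to 2537. In ABX mice, with 0 reads in WT, it was at least 153-fold higher, taking 3 reads over the group as the limit that a count of 0 allows. Single mice moved these ratios. They were 155 without FAD_SPF_1144 and 610 without WT_SPF_912, 124 without FAD_GF_181 and 482 without WT_GF_231, and at least 73.6 without FAD_ABX_1452. Such intervals and limits cover counting error only, and amplified reads without molecular identifiers are not independent molecules. The edgeR adjusted p of the genotype difference was 0.000384 under SPF, 0.000303 under GF and 0.000240 under ABX conditions. With FAD_GF_201 counted as WT, the edgeR log2 fold change in GF mice was 5.08 (adjusted p = 0.00334), against 8.08 in the main fit. Permutation tests within housing (exact, two-sided, on log2 CPM) gave p = 0.0357 in SPF and 0.0159 in GF mice for each member, the smallest these group sizes allow, and in ABX mice p = 0.00433, again the smallest possible, for Spp1 and Igf1 and p = 0.0260 for Gpnmb. Benjamini-Hochberg adjustment over these 9 exact tests left values of at most 0.0357.

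**Figure D1:**
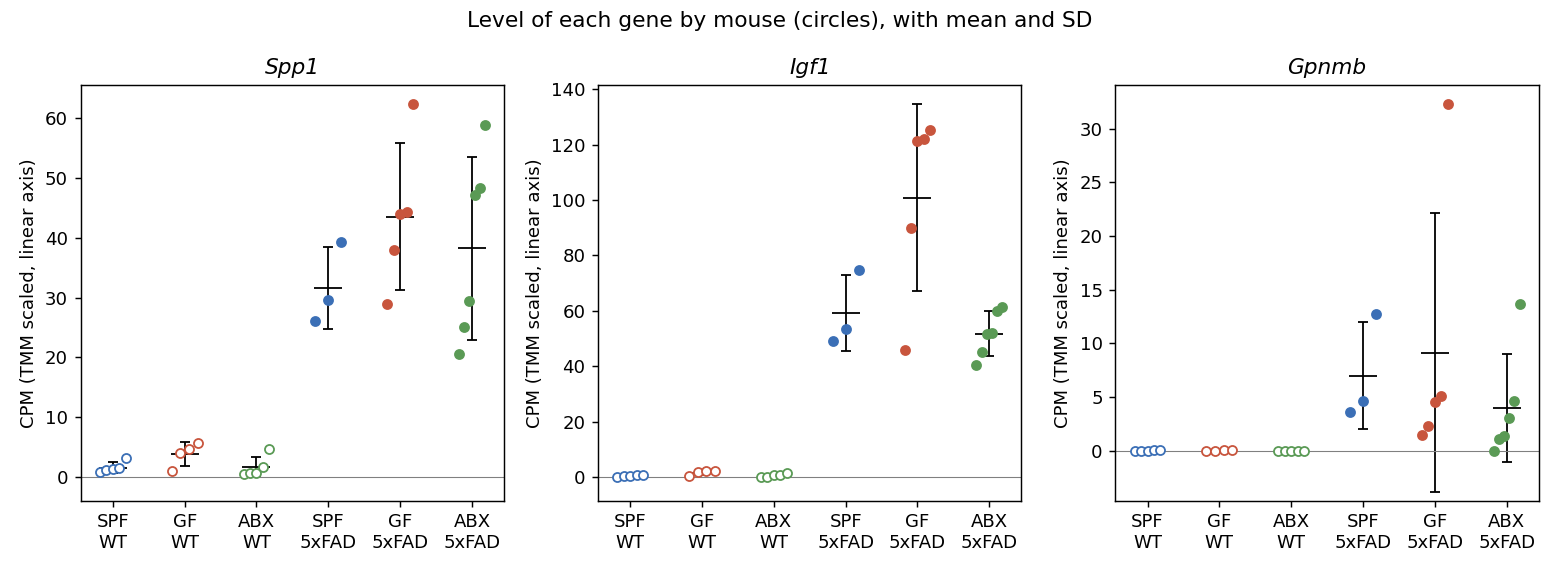
Level of each member in CPM (TMM scaled, linear axis) for each of the 28 mice, by group, with open circles for WT and filled circles for 5xFAD mice and black bars for the mean and SD. Spp1 and Igf1 were above the highest WT mouse in 14 of 14 5xFAD mice, and for Gpnmb single mice at 12.8, 32.3 and 13.7 CPM stood above the rest of their groups.

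Border-associated macrophages line the meninges and vessels and can carry Spp1 and Gpnmb, and the levels of their markers differed between groups. The sum of 8 of their markers (Mrc1, Lyve1, Cd163, Pf4, Ms4a7, Cbr2, Folr2 and F13a1) was 3.48 to 8.62 CPM of the library total in SPF WT, 10.7 to 44.0 in GF WT and 3.88 to 5.94 in ABX WT mice. It was 16.9 to 29.8 in SPF, 10.4 to 81.8 in GF and 34.3 to 256 in ABX 5xFAD mice. Lyve1 and Cd163 were at 0 in all SPF and ABX WT libraries. In 5xFAD against WT, 5 of 8 markers were called higher in SPF, 0 of 8 in GF and 8 of 8 in ABX mice by edgeR. Of all genes, 3.73, 9.43 and 9.45 percent were called higher under these conditions. Under GF, 2 of the 8 markers had an unadjusted p under 0.05. The SPF and ABX comparisons lie between numbering styles, and whether the marker reads came from such macrophages or from microglia was not tested. Monocyte markers summed to 3.72 to 16.9 CPM in WT and 6.02 to 52.0 CPM in 5xFAD mice, and the part of either cell type in the member levels was not tested.

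**Figure D2:**
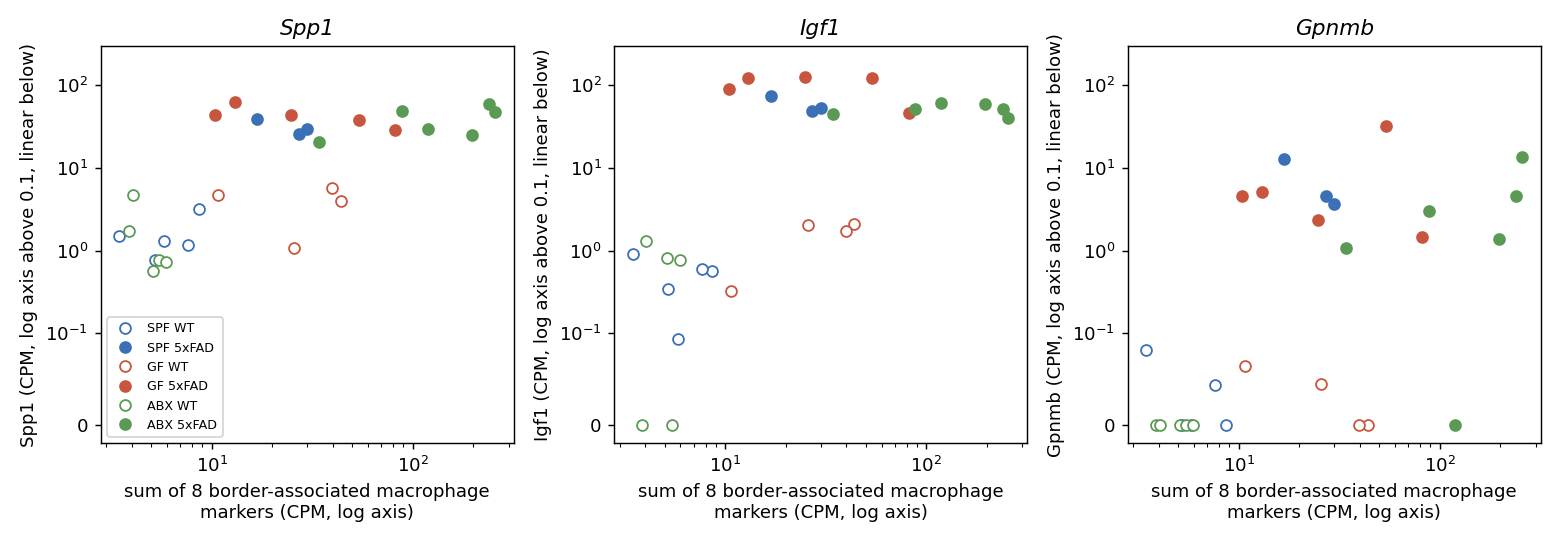
Level of each member (vertical axis, CPM, logarithmic above 0.1 and linear below) against the summed CPM of 8 border-associated macrophage markers (horizontal logarithmic axis), 1 point per mouse, open for WT and filled for 5xFAD. Marker sums ran from 3.48 to 44.0 CPM in WT and from 10.4 to 256 CPM in 5xFAD mice, so that the genotypes overlapped on the horizontal axis.

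In 5xFAD mice, levels per exon length gave another order of the members than CPM. In RPKM, which is CPM per kilobase of exonic sequence, Spp1 averaged 19.2 in SPF, 26.4 in GF and 23.2 in ABX 5xFAD mice. Igf1, with its longer exonic sequence, averaged 5.97, 10.2 and 5.23 RPKM, and Gpnmb 1.08, 1.40 and 0.608 RPKM. Spp1 was thus the most abundant of the 3 per length, while Igf1 had the highest mean CPM in each 5xFAD group and Spp1 in each WT group. In WT mice Spp1 was at 0.962 RPKM under SPF, 2.36 under GF and 1.03 under ABX conditions, and Igf1 at 0.0504, 0.157 and 0.0579 RPKM.

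By mean CPM the groups were ordered GF, ABX and SPF 5xFAD and then GF, ABX and SPF WT for Spp1. For Igf1 the order was GF, SPF and ABX 5xFAD, followed by GF, ABX and SPF WT. The place of ABX above SPF WT mice was not kept on the log2 scale, where ABX WT lay below SPF WT mice, with mean differences of -0.19 for Spp1 and -0.38 for Igf1. For Gpnmb the order by mean CPM was GF, SPF and ABX among 5xFAD mice, while the WT groups, with 2, 3 and 0 reads in GF, SPF and ABX, cannot be ranked. GF mice thus had the highest mean of their genotype for Spp1 and Igf1, also when CPM was taken from library totals. For Gpnmb the order in 5xFAD mice rested on single mice, and without the highest mouse of each group the means were 4.13 CPM in SPF, 3.37 in GF and 2.02 in ABX 5xFAD mice. Of the 15 pairs of neighbours by mean, those of Gpnmb in WT mice included, none had an adjusted p under 0.05 in exact permutation tests, also not at the step between the lowest 5xFAD and the highest WT group. At that step Igf1 did not overlap between ABX 5xFAD and GF WT mice and had the smallest p the group sizes allow (exact permutation test, p = 0.00952, adjusted p = 0.143 over 15 pairs). Spp1 did not overlap between SPF 5xFAD and GF WT mice either (exact permutation p = 0.0571, the smallest possible).

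Whether housing moved the members was asked first within 5xFAD mice. Igf1 was lower in ABX than in GF 5xFAD mice, by 0.96 on the log2 scale (fold 0.512, 95% interval 0.334 to 0.787, edgeR adjusted p = 0.0384), where 6.07 percent of all genes were called lower. This call was lost in 8 of 11 fits that left out 1 of the mice compared, with log2 differences from -1.15 to -0.87 and adjusted p from 0.0107, without FAD_GF_201, to 0.0925, without FAD_GF_184. Within the 1 numbering style that GF and most ABX 5xFAD mice share, the difference was -0.90 (adjusted p = 0.0908), and DESeq2 gave -0.96 with an adjusted p of 0.204. It was kept by limma voom with quality weights (-0.92, adjusted p = 0.00594), without the low-count filter (-0.93, adjusted p = 0.0272), with RLE factors (-0.96, adjusted p = 0.0388) and in a fit of the groups compared alone (-0.93, adjusted p = 0.0411). In the same comparison 4 of 5 neutrophil markers, 1 of 8 border-associated macrophage and 1 of 4 monocyte markers were called higher. Of 7 microglial markers 3 were higher and 1 lower, and of all genes 4.52 percent were called higher. The neutrophil markers summed to 144 CPM in FAD_ABX_1151 and to at most 0.774 CPM in the other ABX 5xFAD mice. The part of these cell types in the Igf1 level was not tested. For Spp1 the ABX to GF difference was -0.18 (95% interval -0.94 to 0.57, adjusted p = 0.810) and for Gpnmb -1.19 (95% interval -2.79 to 0.42, adjusted p = 0.359), the latter 0.25 without FAD_GF_181.

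Between GF and SPF 5xFAD mice, Igf1 was at a fold of 1.71 (log2 difference 0.77, 95% interval 0.0029 to 1.54, edgeR adjusted p = 0.184) and did not pass the threshold, where 6.97 percent of all genes were called higher. With limma voom and quality weights, the kind of model the study used, the Igf1 difference was 0.83 with an adjusted p of 0.00237. Spp1 differed by 0.46 (95% interval -0.46 to 1.39, edgeR adjusted p = 0.563) and Gpnmb by 0.38 (95% interval -1.57 to 2.33, adjusted p = 0.844). The Gpnmb value was -1.06 without FAD_GF_181. None of the members was therefore called by edgeR in GF against SPF 5xFAD mice. All 5 neutrophil markers tested were called lower in this comparison, which lies between numbering styles, and their part in the member levels was not tested.

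Between ABX and SPF 5xFAD mice, Spp1 differed by 0.28 (log2, 95% interval -0.62 to 1.17, edgeR adjusted p = 0.918), Igf1 by -0.19 (95% interval -0.92 to 0.53, adjusted p = 0.928) and Gpnmb by -0.81 (95% interval -2.64 to 1.02, adjusted p = 0.887). The Gpnmb value was -1.78 without FAD_ABX_1452 and -0.0435 without FAD_SPF_1144. The edgeR test called 0 percent of all genes in this comparison, with 1085 genes at an unadjusted p under 0.05, 8 genes called by DESeq2 and 134 by limma voom. As folds, the intervals run from 0.652 to 2.25 for Spp1 and from 0.530 to 1.44 for Igf1.

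In WT mice the GF to SPF differences were 1.31 for Spp1 (log2, 95% interval 0.31 to 2.31, unadjusted p = 0.0122, edgeR adjusted p = 0.156) and 1.64 for Igf1 (95% interval 0.53 to 2.76, unadjusted p = 0.00540, adjusted p = 0.113). Neither passed the threshold, and 0.869 percent of all genes were called higher. Border-associated macrophage markers moved the same way, with 5 of 8 called higher in GF WT than in SPF WT mice, and their part in the member levels was not tested. Between ABX and GF WT mice Spp1 differed by -1.23 (95% interval -2.25 to -0.21, adjusted p = 0.130) and Igf1 by -1.41 (95% interval -2.53 to -0.29, adjusted p = 0.114), where 4.48 percent of genes were called lower. Of the border-associated macrophage markers 5 of 8 were called lower here, and their part was not tested. Without WT_ABX_911 the Spp1 difference was -2.08 with an adjusted p of 0.0184, and without WT_GF_199 its adjusted p was 0.0477. ABX and SPF WT mice differed by 0.08 for Spp1 (95% interval -0.94 to 1.10) and by 0.23 for Igf1 (95% interval -1.0 to 1.47), both at an edgeR adjusted p of 1, where 0 percent of genes were called, 687 had an unadjusted p under 0.05, and DESeq2 called 2 and limma voom 0. For Gpnmb no fold is given among WT groups, since all were at or below 3 reads. Comparisons that share the GF groups are not independent of each other.

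**Figure D3:**
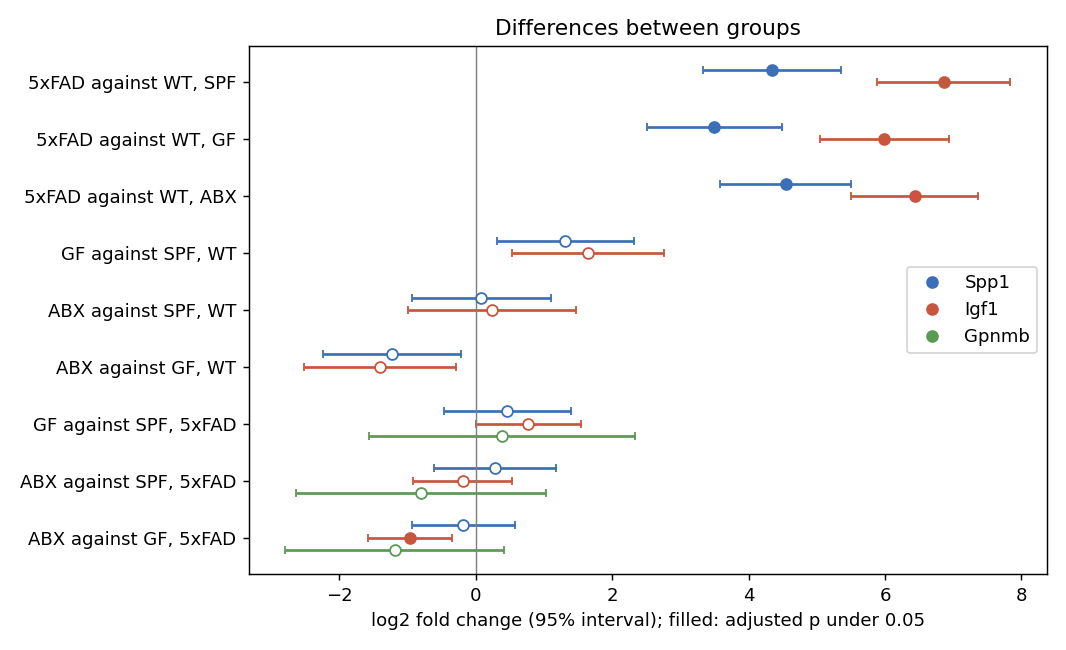
Log2 fold changes from the edgeR fit with 95% intervals for 9 comparisons, with filled points where the adjusted p was under 0.05. Spp1 and Igf1 were far above 0 in 5xFAD against WT mice, and among the housing comparisons Igf1 in ABX against GF 5xFAD mice, at -0.96, was the filled point. Gpnmb is drawn within 5xFAD mice alone, since WT mice held 5 reads in all.

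How the members moved together from mouse to mouse was read from deviations from the group means. Over 28 mice, the deviations of log2 CPM of Spp1 and Igf1 had a Pearson r of 0.106 and a Spearman rho of 0.0148 (permutation p = 0.598 and 0.948). Spp1 and Gpnmb had r = 0.197 and rho = 0.275 (permutation p = 0.308 and 0.157), and Igf1 and Gpnmb r = 0.0341 and rho = 0.121 (permutation p = 0.839 and 0.540). Adjusted over the 3 pairs, each p for r was 0.839. Without the 2 mice farthest from the median, r was -0.0421, 0.281 and 0.0433 for these pairs. WT mice, which held 5 Gpnmb reads in all, carry little on the pairs with Gpnmb. In the 14 5xFAD mice alone, a split chosen after seeing the data, Spp1 and Gpnmb had r = 0.498 and rho = 0.626 (permutation p = 0.0685 and 0.0185, adjusted over the 3 pairs 0.206 and 0.0554, r = 0.487 without 2 mice). There Spp1 and Igf1 had r = 0.335 and rho = 0.292 (permutation p = 0.251 and 0.312, adjusted p = 0.377 and 0.468, r = 0.356 without 2 mice), and Igf1 and Gpnmb r = 0.104 and rho = 0.121 (permutation p = 0.686 and 0.676, r = -0.104 without 2 mice). No pair passed the threshold after adjustment. FAD_GF_181 had the highest Gpnmb of all mice at 32.3 CPM, Igf1 at 122 CPM and Spp1 at 37.9 CPM, the second lowest Spp1 of its group. FAD_ABX_1482 held no Gpnmb read in 15538689 and the highest Igf1 of the ABX 5xFAD mice, 61.3 CPM. In FAD_ABX_1452 the order was the other way round, with Gpnmb at 13.7 CPM, the highest of its group, and Igf1 at 40.6 CPM, the lowest.

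**Figure D4:**
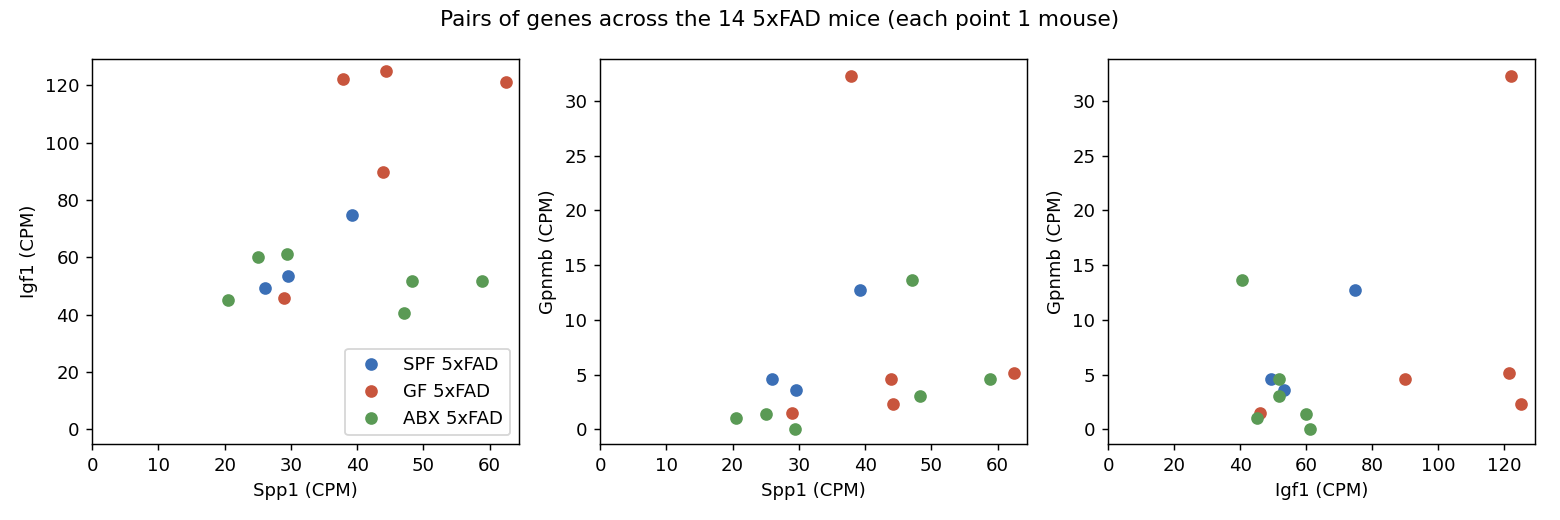
Levels of each pair of members (CPM, linear axes) in the 14 5xFAD mice, 1 point per mouse, colored by housing. GF mice reached 125 CPM of Igf1, and the mouse at 32.3 CPM of Gpnmb lay at 37.9 CPM of Spp1.

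Across all 28 mice, where genotype sets most of the variation, the genes most like Spp1 in log2 CPM were Lilrb4a (Pearson r = 0.962), Baiap2l2 (0.953), Cst7 (0.948), Apoe (0.945) and Ank (0.944). Lilrb4a encodes an inhibitory receptor, Cst7 the cathepsin inhibitor cystatin F and Apoe a lipid carrier. Among those most like Igf1 were Nceh1 (r = 0.968), Cd300lf (0.961), Ptchd1 (0.961) and Lgals3bp (0.960), and those most like Gpnmb were Lamp2 (0.914), Siglecf (0.913), Hif1a (0.906), Nceh1 (0.901) and Cpq (0.900). Nceh1, a cholesteryl ester hydrolase, stood in the Igf1 and the Gpnmb list, and Lamp2 is a structural lysosomal membrane protein. Each was chosen from 9051 genes whose average was 3 log2 CPM or more, and the values are a description with no test. Among themselves the members had r = 0.928 for Spp1 and Igf1, 0.849 for Spp1 and Gpnmb and 0.849 for Igf1 and Gpnmb.

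With group means removed, the leading genes changed. They were Gskip (r = 0.710), Pno1 (0.695), Ywhae (0.686), Hax1 (0.680) and Ubxn8 (0.664) for Spp1. For Igf1 they were Ptchd1 (0.770), Cd300lf (0.692), Coq7 (0.681), Nup37 (0.655) and Mtch2 (0.635). For Gpnmb they were Mbp (0.823), Mcm3 (0.748), Dlst (0.742), Kdelc1 (0.738) and Ncaph (0.726). Ptchd1 and Cd300lf, an inhibitory receptor of myeloid cells, were the genes that stood in both Igf1 lists. Mbp encodes myelin basic protein of oligodendrocytes, and Mcm3 and Ncaph serve DNA replication and chromosome condensation. Leaving out the 2 mice with the largest deviation lowered r to 0.545 for Spp1 and Gskip, to 0.677 for Igf1 and Ptchd1 and to 0.659 for Gpnmb and Mbp, the latter without FAD_ABX_1482 and FAD_ABX_1452. In the 14 5xFAD mice alone these pairs had r = 0.789, 0.488 and 0.887.

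The receptor and protease genes of osteopontin that were called by genotype were higher in 5xFAD mice, with the exception of Itga9. Of 22 listed genes 14 were tested, and in 5xFAD against WT mice 3 were called higher and 0 lower under SPF, 3 higher and 1 lower under GF and 7 higher and 0 lower under ABX, where 3.73, 9.43 and 9.45 percent of all genes were called higher. The list had median log2 changes of 0.33, 0.18 and 0.31 against -0.03, -0.03 and -0.01 over all genes. None was lower at an unadjusted p under 0.05 under SPF or ABX. Cd44, a receptor of osteopontin that is also named as a partner of Gpnmb, rose under each condition. It was at 0.140 to 2.19 CPM in SPF WT and 5.54 to 9.89 CPM in SPF 5xFAD mice (log2 fold change 3.00, SE 0.725, edgeR adjusted p = 0.0100), with 2.95 (adjusted p = 0.00531) in GF and 2.31 (adjusted p = 0.0154) in ABX mice. The metalloproteinase gene Mmp12 rose in SPF (log2 fold change 3.07, adjusted p = 0.0387) and ABX mice (2.56, adjusted p = 0.0292), and in GF mice it was at 1.82 with an adjusted p of 0.149. Mmp9, which is chosen here after its values were seen and is also a neutrophil gene, was called higher in SPF (adjusted p = 0.0233) and ABX mice (adjusted p = 0.00775), the comparisons that hold the libraries with neutrophil markers.

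Integrin subunits differed among each other. Itga5, a chain of the fibronectin receptor, rose by 0.51 in GF (log2, SE 0.161, edgeR adjusted p = 0.0284) and by 0.72 in ABX 5xFAD mice (SE 0.147, adjusted p = 0.000949), and was 0.37 in SPF mice (adjusted p = 0.327). Itgb5 rose by 0.51 in ABX mice (SE 0.102, adjusted p = 0.000653). Itga9 fell by 0.88 in GF mice (SE 0.124, adjusted p = 5.93e-06), the 1 gene of the list called lower by genotype, and Plau, the urokinase gene, was called higher there (1.06, adjusted p = 0.0386). Itgav, a chain of the classical osteopontin receptors, was not called in any genotype comparison, but in GF against SPF 5xFAD mice it was lower (-1.15, SE 0.223, adjusted p = 0.00227), where 5.86 percent of all genes were called lower, and in ABX against GF 5xFAD mice it was higher (0.70, SE 0.191, adjusted p = 0.0187), where 4.52 percent were called higher. Itga5 was higher in GF than in SPF 5xFAD mice (0.56, SE 0.177, adjusted p = 0.0345). The mean level of Itgav was 294 ± 43.2 (SD, n = 3) in SPF, 133 ± 17.0 (SD, n = 5) in GF and 215 ± 89.3 CPM (SD, n = 6) in the ABX 5xFAD group. Itga4 and Itgb8 were the other genes called higher under ABX (adjusted p = 0.0175 and 0.00823).

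Few genes of the Igf1 signaling chain were called by genotype, each under only 1 housing condition. Those called were lower in 5xFAD mice, with the exception of Akt1. Of 30 listed genes 16 were tested, and in 5xFAD against WT mice 0 were called higher and 1 lower under SPF, 0 and 3 under GF and 1 and 2 under ABX, where 0.837, 6.2 and 4.98 percent of all genes were called lower and 3.73, 9.43 and 9.45 percent higher. The median log2 change of the list was -0.07 under SPF, -0.17 under GF and 0.16 under ABX, against -0.03, -0.03 and -0.01 over all genes. No gene of the list was higher at an unadjusted p under 0.05 under SPF or GF. The receptor gene Igf1r was called in 0 of 9 comparisons between groups by edgeR, 0 of them at an unadjusted p under 0.05, with mean levels of 22.2 to 25.8 CPM in all 6 groups and log2 changes of -0.10 (SE 0.200), -0.18 (SE 0.183) and 0.17 (SE 0.166) in 5xFAD against WT mice under SPF, GF and ABX conditions. The gene of the insulin receptor, Insr, fell by 0.49 in ABX mice (SE 0.136, adjusted p = 0.0132) and was lower in GF than in SPF 5xFAD mice (-0.51, SE 0.163, adjusted p = 0.0376). Among the signaling genes, Grb2 fell by 0.30 in SPF mice (adjusted p = 0.0390), Pik3cd by 0.31 (adjusted p = 0.0450) and Foxo1 by 0.50 (adjusted p = 0.0422) in GF mice, and Pik3r1 by 0.45 in ABX mice (adjusted p = 0.00912), while Akt1 rose by 0.28 in ABX mice (adjusted p = 0.0315). Igf2r, the scavenger receptor of the related ligand Igf2, was called lower in GF mice (adjusted p = 0.0322), at low levels, with a mean of 1.28 CPM in GF WT and 0.0990 CPM in GF 5xFAD mice. The other 14 genes of the list, Igf2 and all binding protein genes except Igfbp4 among them, were below the count filter.

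Of the 11 genes listed around Gpnmb, all 11 were tested, and 1 was called higher and 0 lower under SPF, 1 higher and 1 lower under GF and 2 higher and 0 lower under ABX in 5xFAD against WT mice, beside shares of 3.73, 9.43 and 9.45 percent of all genes called higher and 0.837, 6.2 and 4.98 percent lower, with 1 gene lower at an unadjusted p under 0.05 under SPF and 1 under ABX. The median log2 change of the list was 0.08 under SPF, -0.07 under GF and 0.10 under ABX. Cd44 was called in each. The transcription factor genes Mitf, Tfeb and Tfec were called in 0 of 9 comparisons by edgeR, where Tfeb and Tfec each had 1 unadjusted p under 0.05 and Mitf none. Tfe3 fell by 0.27 in GF mice (SE 0.0910, adjusted p = 0.0434), and Flcn, which restrains these factors, rose by 0.36 in ABX mice (SE 0.0775, adjusted p = 0.00186). Adam10, the sheddase, and Sdc4, a heparan sulfate proteoglycan, were not called by genotype but had GF to SPF differences of -0.58 (SE 0.146, adjusted p = 0.00957) and -0.98 (SE 0.310, adjusted p = 0.0357) in 5xFAD mice.

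**Figure D5:**
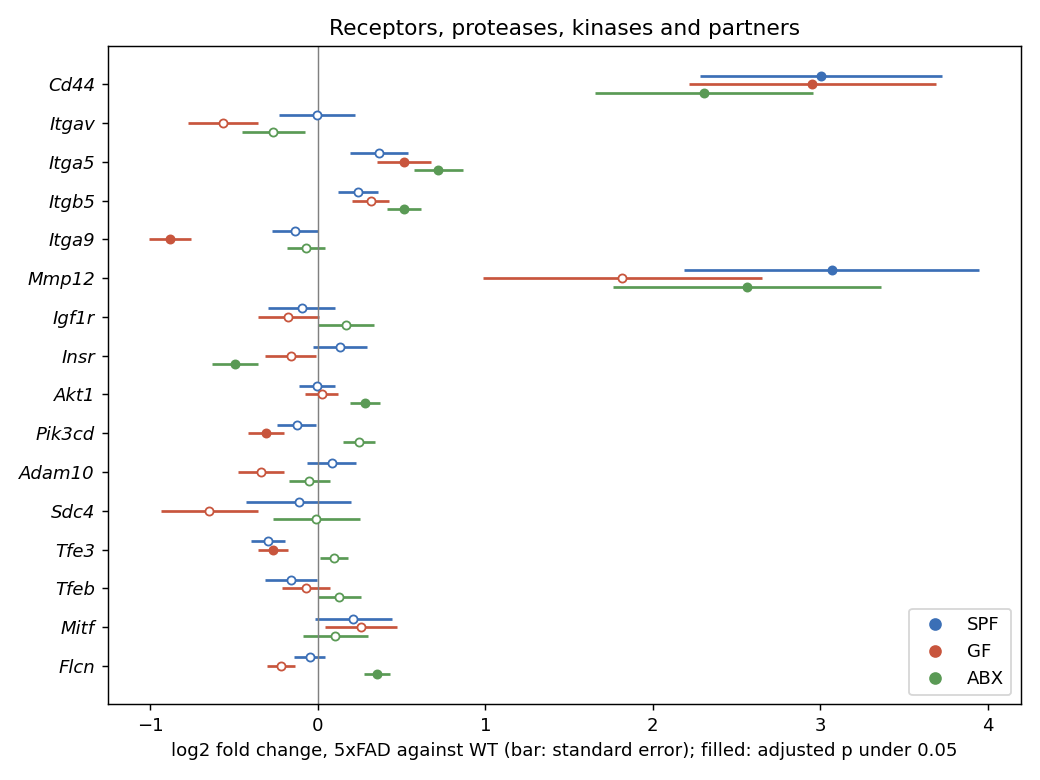
Log2 fold changes of 5xFAD against WT mice with their standard errors for 16 receptors, proteases, kinases and partners of the members, colored by housing and filled where the edgeR adjusted p was under 0.05. Cd44 was called in all 3 conditions, while Igf1r, Itgav, Mitf and Tfeb were called in none.

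The members were also read beside 27 genes known from plaque-associated microglia, a list chosen with results on these mice known, so that its direction is not independent evidence. All 27 were called higher in 5xFAD than in WT mice under each condition, with a median log2 change of 2.09 under SPF, 2.79 under GF and 2.14 under ABX conditions, where 3.73, 9.43 and 9.45 percent of all genes were called higher. Under SPF the log2 changes of the list ran from 0.54 for Timp2 to 6.52 for Cst7, followed by Axl at 4.81 and Fabp5 at 4.30, with Apoe at 3.36 (SE 0.249, edgeR adjusted p = 6.46e-11) and Csf1, a growth factor of microglia, at 2.45 (SE 0.181, adjusted p = 6.24e-11). Beside them stood Igf1 at 6.86 and Spp1 at 4.35. Between GF and SPF 5xFAD mice 16 of 27 were called higher and 0 lower, with Apoe at 1.08 (adjusted p = 0.00731) and a list median of 0.60, where 6.97 percent of all genes were called higher. Between ABX and GF 24 of 27 were called lower and 0 higher, with a median of -0.69, where 6.07 percent of all genes were called lower. In that comparison Igf1 was at -0.96, a call lost in 8 of 11 fits with a mouse left out, and Spp1 at -0.18, and the difference between these genes was not tested.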

How the data were processed

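Per the study's methods and the labels, the authors aligned single reads to GRCm38 (GENCODE M21) with STAR 2.7.2 and counted them with featureCounts 1.6.2, after SMARTer Ultra Low v4 amplification and Nextera XT library preparation. The labels' processing notes list a human build, whereas the gene coordinates in the table are those of the mouse build. The table deposited holds whole read counts, not normalized. The 92 spike-in entries were left out. Genes passing filterByExpr (minimum count 10, minimum total 15) were fitted in edgeR 4.0.16 (R 4.3.3) with TMM factors and 1 term per group, and tested by quasi-likelihood with Benjamini-Hochberg adjustment over 15298 genes at 0.05. SE was taken from the F statistic, and scripts were tested on simulated data. DESeq2 1.42.0 and limma 3.58.1 (voom with quality weights) served as alternatives, beside other scalings, filters, left-out mice and FAD_GF_201 as WT. Log2 CPM used a prior count of 2, or 0.5 as an alternative. Marker sums used library totals as scale. Each library is a separate mouse, and no pair of libraries of a group agreed within sampling noise. The members and lists were chosen with earlier results of these data known. Besides the members, the text names fixed receptors and factors. Mmp9, Plau, Itga4, Itgb8, Foxo1, Timp2, Axl and Fabp5 were named in addition, after their values were seen. The text also names the 5 genes most correlated with each member and up to 6 genes per list, ranked by the number of comparisons that called them. A few genes of the fixed lists and of those so ranked are not reported here and were left out of the list counts and marker sums.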

Additional observations from a re-analysis of the deposited data

Results flagged for a closer look

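In the GF WT group, mouse WT_GF_231 held 0.322 CPM of Igf1, from 5 reads, while the other 3 mice stood at 1.72, 2.06 and 2.11 CPM. Its gap to the nearest mouse was 0.882 of the range of the group, above Dixon's 95% critical value for 4 mice. Chance flags about 1 in 20 groups, and 14 groups of a member were examined in this way, so 1 flag is near what chance gives. The same mouse was at 4.76 CPM of Spp1, within the range of its group, and leaving it out gave an adjusted p of 0.0828 (edgeR) for Igf1 in GF against SPF WT mice, against 0.113 with all mice.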

How the results depend on the processing

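No paired analysis was possible because each mouse number belongs to 1 mouse. The 9 differences between genotypes were past the threshold under all alternatives run, single mice left out included. Log2 changes ran, without those fits, for Spp1 from 2.40 to 5.02 and for Igf1 from 3.45 to 7.81, the lowest of each with FAD_GF_201 counted as WT. Gpnmb among WT groups and in the tests of unequal effects was left out, since WT mice were at or below 3 reads. Igf1 in ABX against GF 5xFAD mice was no longer called with library size alone (-0.88, adjusted p = 0.0589), DESeq2 (-0.96), without FAD_ABX_1151 and FAD_ABX_1482 (-0.98), with FAD_GF_201 as WT (-1.15) or in the shared numbering style (-0.90), and was called with RLE factors, no low-count filter, voom or the compared groups alone, and leaving out single mice gave -1.15 to -0.87. Voom with quality weights called Igf1 in GF against SPF 5xFAD mice (0.83) and turned the sign of Gpnmb there (-0.0301), of Spp1 (-0.20) and Igf1 (-0.78) in ABX against SPF WT mice and of the Igf1 effect difference between ABX and SPF (0.70). Without FAD_ABX_1151 and FAD_ABX_1482, Spp1 in ABX against GF 5xFAD mice was 0.0454. With FAD_GF_201 as WT, GF against SPF WT mice were called for Spp1 (2.52) and Igf1 (4.37), and ABX against GF WT mice for Spp1 (-2.44) and Igf1 (-4.14), and the levels of this mouse lie in the 5xFAD range. Leaving out single mice moved Spp1 in ABX against GF WT mice from -2.08 to -0.96, Gpnmb from -1.06 to 1.14 in GF against SPF and from -2.15 to 0.25 in ABX against GF 5xFAD mice, Igf1 in ABX against SPF 5xFAD mice from -0.32 to 0.00895, Spp1 and Igf1 in ABX against SPF WT mice from -0.76 to 0.47 and from -0.19 to 0.57, and the Spp1 effect difference between ABX and SPF from -0.20 to 1.03. Without the low-count filter, 2 osteopontin genes were called lower under GF, 0 Igf genes under SPF and 0 Gpnmb partners under GF. For the other changes the cause was not tested. At this depth Gpnmb in WT mice, at 0 to 2 reads a library, cannot be ranked among groups.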
